A study of Caenorhabditis elegans with 33 samples.

Results

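The genes described here are the 300 targets with the most abundant CSR-1 class small interfering RNAs (siRNAs) in wild type adult Caenorhabditis elegans. They were taken from the 3612 genes of the deposited CSR-1 siRNA table that are not also in the Mutator siRNA table, and were selected on the mean level over 3 wild type adult libraries, in RPM, the reads of a gene scaled to the depth of its library. Because that level chose the genes, it is given as a description without a test. RefSeq names matched 297 of the 300, of which 295 are protein coding and 2 are pseudogenes, and all 300 are in the mRNA table of 20517 genes.

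CSR-1 is an Argonaute protein of the germline that is loaded with short antisense siRNAs, which the RNA-dependent RNA polymerase EGO-1 makes on the target transcripts. It differs from the Argonautes of the WAGO group in that its targets are mostly genes expressed in the germline, and it is known for keeping them licensed for expression and for a part in chromosome segregation. Mutator class siRNAs are made in separate foci at the germline nuclear envelope and load WAGO Argonautes. ALG-1 and ALG-2 are the main microRNA Argonautes of the worm, and ALG-5 is a related microRNA Argonaute of the germline.

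The study sequenced small RNA of 18 to 28 nt in 18 single libraries and ribosome-depleted RNA in 15 libraries, all from whole hermaphrodite cultures with mutations in, or tagged forms of, the 3 ALG genes. The wild type is N2, and the mutants are alg-1(gk214) X, alg-2(ok304) II and the alg-5 alleles tm1163 and ram2 on I. Small RNA of gravid adults at 68 h came from 3 wild type libraries and 1 library each of alg-1(gk214), of alg-2(ok304) and of alg-5(tm1163), and small RNA of late L4 larvae at 49 h from 1 wild type and 1 alg-5(ram2) library. An input and an immunoprecipitate were sequenced for every one of 5 tagged constructs. HA::ALG-1 is an alg-1::HA::alg-1 transgene on IV in alg-1(gk214), HA::ALG-2 is alg-2::HA::alg-2 on IV in alg-2(ok304), and HA::ALG-5 is alg-5::3xHA::alg-5 on II in alg-5(tm1163). ALG-1::HA::ALG-2 carries alg-1::HA::alg-2 on IV in alg-1(gk214), so its own alg-2 gene is also present. These 4 were adults, and their values are given below in the order HA::ALG-1, then HA::ALG-2, then the fusion ALG-1::HA::ALG-2, and last HA::ALG-5, while GFP::ALG-5, with GFP and 3xFLAG inserted at the alg-5 locus itself (allele ram-1), was collected as L4 and recovered with an anti-GFP in place of an anti-HA matrix. The mRNA came from late L4 larvae of wild type and the 4 mutants with 3 libraries each, at 49 h except alg-1(gk214) at 53 h.

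The shallowest small RNA library, wild type adult 2, had 1622092 total reads and the deepest, the input of GFP::ALG-5, had 24518714, which left 43573 to 653063 reads on the 300 genes per library. The column headers place the small RNA libraries in 4 experiments: wild type adult 1 with the constructs of ALG-1 and ALG-2, wild type adult 2 with alg-1(gk214) and alg-2(ok304), wild type adult 3 with alg-5(tm1163) and HA::ALG-5, and all L4 libraries. The labels name polyphosphatase or tobacco acid pyrophosphatase for the step that opens triphosphorylated 5' ends, without saying which library had which. The mutated genes were checked in the mRNA. alg-1 had 28.9, 29.4 and 32.7 FPKM, a level per length of transcript and depth of library, in wild type and 10.7, 16.3 and 12.1 in alg-1(gk214), a limma log2 change of -1.18 (SE 0.17, adjusted p = 0.000375). alg-2 had 17.2, 15.5 and 13.3 FPKM in wild type and 1.94, 2.15 and 2.103 in alg-2(ok304), a limma log2 change of -2.41 (SE 0.21, adjusted p = 7.16e-06). The gene that RefSeq names alg-5, listed as hpo-24, had 9.75, 8.03 and 10.3 FPKM in wild type and 0.557, 0.996 and 0.607 in alg-5(ram2), a limma log2 change of -2.59 (SE 0.26, adjusted p = 0.000702). In alg-5(tm1163) it had 9.84, 11.8 and 9.11 FPKM, overlapping wild type, so its mRNA level does not check that label.

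The 300 genes held 37.7%, 37.4% and 38.9% of all CSR-1 siRNA reads in wild type adults 1, 2 and 3, a mean of 38.01 ± 0.773% (SD, n = 3). Their summed level was 35503, 41213 and 76513 RPM, so the share was nearly constant while the level in adult 3 was more than that in the others. Within the 300, the 10 most abundant took 12.9%, 12.3% and 11.6% of the sum and the 100 most abundant took 55.4%, 54.4% and 56.6%. An RPM value is not divided by gene length, so the order below is an order of siRNA reads per gene.

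The most abundant targets included 4 microtubule proteins among the first 12, cls-2, klp-7, klp-18 and klp-16. cls-2, a CLASP protein of the spindle and kinetochore, was highest with 853, 778 and 1289.6 RPM in wild type adults 1, 2 and 3. snrp-200, the helicase of the spliceosomal U5 particle, had 543, 653 and 1117 RPM, and klp-7, a kinesin that takes microtubules apart, had 464, 567 and 1116 RPM. In these leading genes adult 3 was the highest library and adults 1 and 2 lay close together. top-2, the type II DNA topoisomerase, had 486, 569.9 and 886 RPM. wago-9, the nuclear germline Argonaute also called hrde-1, had 563, 509 and 752 RPM, and F13D12.5, which carries no gene class name, had 476, 518 and 577 RPM. These last genes had the smallest gap between adult 3 and adult 1, while the median ratio of those libraries over the 300 was 2.33.

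The next 6 were hum-2, an unconventional myosin, klp-18 and klp-16, kinesins that work on the oocyte meiotic spindle, set-9, a SET domain protein, inft-2, a formin, and T12E12.3, with means over the adults down to that of T12E12.3 at 299, 309 and 697 RPM. klp-16 had 272, 361 and 756 RPM and its near-identical neighbour in sequence, klp-15, 261, 326 and 682 RPM. Reads from such copies cannot be assigned with certainty, and the same holds for set-9 and set-26, gpr-1 and gpr-2, egg-4 and egg-5, and htp-1 and htp-2. At the other end of the ranking, the last genes inside were dog-1, Y61A9LA.10 and Y6D1A.1 with wild type adult means of 86.9, 86.8 and 86.2 RPM, and the first outside were knl-2, mus-101 and tag-184 with 86.2, 86.2 and 86.1 RPM. The threshold thus cuts a continuous range.

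**Figure D1:**
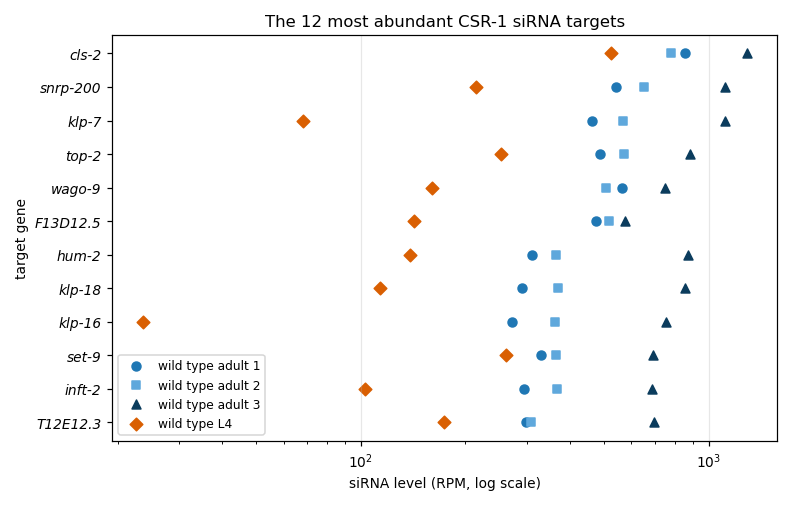
siRNA level in RPM (log axis) of the 12 most abundant targets in 3 wild type adult libraries (blue symbols) and 1 wild type L4 library (orange diamond), 1 point per library. The L4 point lies below every adult point for all 12 genes, and klp-7 and klp-16 show the widest gap.

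A few genes differed between the adult libraries. Of the 300, 268, 272 and 271 were also in the top 300 of adult 1, 2 and 3 taken alone, which the choice on the mean of these libraries largely fixes. Only 8 of the 300 were lower in adult 3 than in adult 1. The most extreme of these was vit-2, a yolk protein gene of the intestine, at 137, 224 and 3.34 RPM in adults 1, 2 and 3, which ranked 3405 among the CSR-1 table genes in adult 3. The alg-5(tm1163) adult of the same experiment had 3.05 RPM of it, whereas the adult inputs of the HA constructs had 213, 207, 231 and 124 RPM, so the HA::ALG-5 input of that experiment did not share the low value. mnk-1, a kinase that phosphorylates a translation initiation factor, was likewise low in the wild type and alg-5(tm1163) adults of that experiment. It had 94.7, 178 and 16.8 RPM in wild type adults 1, 2 and 3 and 17.0 RPM in alg-5(tm1163). In the HA::ALG-5 input no member was below 59.0 RPM.

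Adult 2 differed from the others at fars-1, a subunit of phenylalanyl-tRNA synthetase. It had 71.8, 332 and 59.8 RPM in the wild type adults, and the mutants run beside adult 2 were also high, with 462 RPM in alg-1(gk214) and 381 RPM in alg-2(ok304), against 55.9 RPM in alg-5(tm1163). retr-1 was high in adult 1, at 633, 147 and 192 RPM. Its adult inputs had 519, 523, 209.7 and 83.2 RPM, so it varied also within experiment 1.

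The groups behind the set are given by lists of genes drawn up from textbook roles, with counts of members out of the list's genes in the CSR-1 table. The largest share came from the CSR-1 pathway and P granule list, with 8 of 11. Tubulin, kinesin and dynein genes gave 10 of 16, histone variants and chromatin proteins 7 of 16, and meiosis and cohesion 6 of 21. Those 10 include zyg-9, klp-10, which RefSeq lists as a pseudogene, and the near copies klp-15 and klp-16. Cell cycle genes gave 6 of 18, nuclear pore and transport 7 of 29, oocyte and eggshell genes 4 of 12, and germline RNA binding proteins 5 of 38 (13.2%). The aminoacyl-tRNA synthetases gave 4 of 23 (17.4%), splicing genes 4 of 32, proteasome subunits 3 of 29 and chaperones 3 of 32 (9.38%). The table as a whole gave 300 of 3612 (8.31%), and below that share lay actin and actomyosin with 1 of 17, DNA replication and repair with 1 of 23 and vesicle traffic with 1 of 28. No member came from the 18 ribosomal protein genes, 21 ubiquitin and SUMO genes or 9 mitochondrial ATP and respiration genes in the table. Since abundance chose the set and lists differ in gene length, these counts describe its make-up only.

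The CSR-1 pathway was itself a target of the pathway's siRNAs. The csr-1 transcript had 152, 192 and 380.0 RPM in wild type adults 1, 2 and 3, and ego-1, the polymerase that makes CSR-1 siRNAs, had 89.5, 125 and 241 RPM. The P granule helicases of the Vasa family, glh-4 and glh-1, had 249.9, 274 and 574 RPM and 221, 285 and 451 RPM. The P granule scaffold genes pgl-1 and pgl-3 had 133, 147 and 314 RPM and 117, 141 and 219 RPM, and npp-10, a nuclear pore gene, had 121, 137 and 293 RPM. With wago-9, an Argonaute of the WAGO group, these 8 genes of the list summed to 1644, 1810.1 and 3224 RPM. Other Argonaute genes in the set, named after their values were seen, were wago-4 with 184, 238 and 405 RPM, ppw-2 with 201, 242 and 456 RPM and wago-1 with 60.8, 55.5 and 147 RPM.

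The mRNAs of the 300 genes were expressed throughout. Their wild type L4 level, which is per length, had a median of 27.4 FPKM and quartiles of 15.7 and 49.5 FPKM. The other 3312 CSR-1 targets had a median of 29.2 FPKM and all 20517 genes 5.97 FPKM. At least 10 FPKM was reached by 269 of the 300 (89.7%), by 85.2% of the other CSR-1 targets and by 42.0% of all genes. The range ran from 1.23 FPKM for Y48G1BM.1 to 2406 FPKM for eef-2, translation elongation factor 2. Within the 300, adult siRNA level and L4 FPKM were nearly unrelated, with a Pearson r of -0.12 and a Spearman rho of -0.11 on log values over 300 genes, which share the libraries and gene models, and stage differs between the measures.

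Some members were neighbours in the gene order of RefSeq (assembly WBcel235). Of the 295 protein-coding members, 35 (11.9%) had another member as the next gene, against 205 of 3260 other CSR-1 targets (6.29%) and 334 of 16428 other protein-coding genes (2.03%) that had a member next to them. They formed 16 runs, of which 3 held 3 genes: hcp-6, spd-5 and npp-6, then tars-1, C47D12.8 and inos-1, then drp-1, T12E12.3 and cec-6. The first run joins a condensin subunit, a centrosome scaffold and a nuclear pore gene. C47D12.8 and inos-1 had similar levels, 119, 155 and 325 RPM and 100.4, 138 and 278 RPM in adults 1, 2 and 3, while tars-1, threonyl-tRNA synthetase, had 107, 104.2 and 151 RPM. No test was made of these counts, and they cover only adjacent genes, whatever their strand or distance.

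Most of the 300 had fewer siRNA reads in late L4 larvae than in gravid adults, as did most CSR-1 targets. In limma, which compared log2(RPM + 1) in 3 L4 libraries (wild type, alg-5(ram2) and the GFP::ALG-5 input) with 4 adult inputs that took no part in choosing the genes, 273 were lower and 2 higher at an adjusted p under 0.05. Over all 3527 CSR-1 targets tested, 90.2% were lower and 1.81% higher, so these counts are those of the class. The median fitted log2 difference was -1.26 for the 300 and -1.31 for the other targets. L4 and adult libraries did not overlap in 268 of the 300. Expressed as a ratio of mean RPM, the median was 0.408, 62 genes were below 0.25 and 16 below 0.1. The non-overlap and the ratios were not counted for the other targets, so they cannot be set against the class. Genes chosen for high adult levels are more likely to be lower elsewhere, and each stage was sequenced in its own experiment, so stage and experiment cannot be told apart.

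Of the 4 oocyte and eggshell members, all but cbd-1 were below a ratio of 0.1. egg-5 and egg-4, phosphatase-like proteins of the oocyte-to-embryo transition, had 145, 162, 244 and 255 RPM and 129.6, 144, 214 and 233 RPM in the 4 adult inputs. In wild type, alg-5(ram2) and GFP::ALG-5 L4 they had 7.38, 7.68 and 8.59 RPM and 7.10, 8.59 and 8.34 RPM. The stages were thus far apart, with little spread within L4. rme-2, the yolk receptor of oocytes, went from 113, 128, 172 and 184 RPM in the adult inputs to 10.8, 9.77 and 9.91 RPM in L4, and puf-5, an RNA-binding repressor in oocytes, from 72.4, 76.3, 92.1 and 88.6 to 4.78, 4.59 and 4.98 RPM. The fitted log2 difference of egg-5 was -3.30 (SE 0.11, adjusted p = 2.32e-11) even after each library was scaled to its CSR-1 siRNA sum, in limma. The eggshell gene cbd-1, which binds chitin, was less affected, with 113, 137, 162 and 157 RPM in adult inputs and 55.1, 41.8 and 64.7 RPM in L4. The 4 oocyte and eggshell members together had a median fitted log2 difference of -4.01, with all 4 lower.

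The lowest L4 to adult ratios belonged to H02I12.5 and mesp-1, a gene needed for the meiotic spindle. H02I12.5 had 73.5, 72.7, 107 and 137 RPM in the adult inputs and 4.17, 2.098 and 2.91 RPM in L4, a ratio of 0.0314. mesp-1 had 74.2, 72.8, 110.4 and 126 RPM and 2.67, 3.00 and 3.79 RPM, a ratio of 0.0329. Neighbours C47D12.8 and inos-1 were lower together, at 13.3, 12.9 and 14.2 RPM and 6.18, 6.77 and 7.06 RPM in L4, while the adjacent tars-1 had 119, 102, 101 and 109 RPM in the adult inputs and 25.3, 24.5 and 29.0 RPM in L4, a ratio of 0.244. Other genes below a ratio of 0.1 were hcp-3, the centromeric histone variant, with 169, 178, 280.2 and 278 RPM in adult inputs and 15.4, 15.2 and 17.5 RPM in L4, and mei-1, the katanin subunit of the meiotic spindle, with 80.4, 80.0, 80.8 and 103 and 6.802, 6.64 and 6.20 RPM. kca-1, mrp-4, C27D9.1 and retr-1 completed the 16 with klp-15 and klp-16.

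All 10 tubulin, kinesin and dynein members were lower in L4, as were 90.2% of all targets, with a median fitted log2 difference of -1.99 against -1.26 over the 300. After scaling to the CSR-1 sum 9 of the 10 were lower, against 41.1% of all targets, and no test of the list was made. The 10 include the pseudogene klp-10 and the near copies klp-15 and klp-16, so they cannot be counted as 10 separate genes. klp-16 had 299.8, 304, 419.9 and 501 RPM in adult inputs and 23.6, 45.4 and 24.0 RPM in L4, and klp-15, its near copy, 291, 297, 372 and 451 and 22.8, 41.2 and 26.2 RPM. klp-7 had 517, 548, 786 and 785 and 68.3, 90.8 and 81.6 RPM. The dynein heavy chain dhc-1 was nearer to the median of the set, with 207, 229, 319 and 354 RPM in adult inputs and 79.3, 78.7 and 88.3 RPM in L4.

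On the RPM scale the chromosome and nuclear pore genes were lower about as often as all targets, of which 90.2% were. The 7 histone variant and chromatin members and the 6 cell cycle members were all lower in L4, and 5 of 6 meiosis and cohesion members and 6 of 7 nuclear pore and transport members were. After scaling to the CSR-1 sum, where 22.5% of all targets were higher and 41.1% lower, 2 of the chromatin members were higher and 1 lower, 2 of the cell cycle members were higher and 2 lower, and 5 of the nuclear pore and transport members were higher and 2 lower. The median on that scale was 0.40 for the nuclear pore and transport members and -0.75 for the tubulin, kinesin and dynein members, a difference that was not tested.

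The CSR-1 pathway members lay on both sides of the class median. The Vasa-like helicase genes differed least between the stages. glh-1 had 227, 260.0, 337 and 336 RPM in adult inputs and 208, 236 and 267 RPM in L4, and its limma log2 difference of -0.28 (SE 0.25, adjusted p = 0.288) did not pass. glh-4 had 275, 292, 387 and 422 and 195, 274 and 248 RPM, with a log2 difference of -0.51 (SE 0.26, adjusted p = 0.0511) in limma, which also did not pass. The other 6 of the 8 pathway members were lower, from a log2 difference of -1.73 for wago-9 and -1.52 for pgl-3, both beyond the median of -1.26 over the 300, through -1.24 for csr-1, close to that median, to -0.81 for pgl-1. wago-4, a germline Argonaute named after its values were seen, overlapped between stages, with 201, 269, 344 and 366 RPM in adult inputs and 239, 316 and 286 RPM in L4.

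A few genes went the other way or did not differ. fars-1, the tRNA synthetase subunit, had 63.1, 78.8, 117 and 86.9 RPM in the adult inputs and 214, 310.4 and 246 RPM in L4, a limma log2 difference of 1.58 (SE 0.23, adjusted p = 1.14e-11). Every L4 library was above every adult input, but wild type adult 2, at 332 RPM, was above them too, so the gap depends on which adult libraries are used. asc-1 had 93.2, 133, 173 and 96.4 RPM in the adult inputs and 245, 268 and 249 RPM in L4, a limma log2 difference of 1.08 (SE 0.23, adjusted p = 6.23e-06). For eef-2, the elongation factor, the adult inputs had 112, 133, 147 and 109 RPM and L4 152, 145 and 186 RPM, a limma log2 difference of 0.36 (SE 0.23, adjusted p = 0.122). btf-1, with 85.2, 219 and 179 RPM in L4 against 145, 127, 125 and 160.3 RPM, did not pass either (limma adjusted p = 0.647).

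Scaling each library to its own CSR-1 siRNA sum replaced a shared fall by a split. On that scale limma called 100 of the 300 higher and 118 lower in L4, against 22.5% higher and 41.1% lower of all targets tested, with a median difference of -0.02 for the 300 and -0.22 for the other targets. glh-1 and glh-4 passed as higher, with log2 differences of 0.97 (SE 0.11, adjusted p = 2.25e-06) and 0.73 (SE 0.11, adjusted p = 6.56e-05), while wago-9 and pgl-3 passed as lower, and csr-1 was at 0.01. The class sum fell while microRNAs took more of the L4 libraries, with 271645 to 322902 RPM in the 3 L4 libraries against 130135 to 179459 RPM in the 4 adult inputs. Mutator siRNAs were at 307271 to 346504 RPM in L4 and 348872 to 453135 RPM in the adult inputs. The part of this make-up in the RPM differences was not tested. limma pooled the spread over genes almost completely in this fit (1537 prior degrees of freedom), so its p-values rest on a common spread although all genes of a library shift together.

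In wild type L4, 207 of the 300 were still among the 300 most abundant CSR-1 targets of that library, with a median rank of 184.5. The rank of mesp-1 there was 2770. In the bulk libraries, fewer cells of the germline and fewer siRNAs per cell cannot be told apart.

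The single mutant libraries were set against the wild type library of the same experiment, without a test. In the alg-1(gk214) adult the 300 genes summed to 0.780 of wild type adult 2, and the other targets to 0.792. Differences are on the log2(RPM + 1) scale, and a gene is counted when past 2-fold. In alg-1(gk214), 20 of the 300 were past 2-fold lower and 0 higher, against 10.8% lower and 1.25% higher of all targets tested. The largest differences were at retr-1, with 40.4 RPM against 147 RPM, at Y23H5B.6, with 68.6 against 248 RPM, and at egl-27, with 26.0 against 70.3 RPM. asc-1 had the largest difference upwards, 207 against 110.1 RPM. Of the 300, 131 lay within the range of the 3 wild type adults, as did 1263 of 3215 other targets. That range comes from the libraries that chose the genes, and the high level of adult 3 widens it. Scaled to the CSR-1 sum, the median log2 difference was -0.01 and 4 were past 2-fold lower, with 2 higher.

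The alg-2(ok304) and alg-5(tm1163) adults were close to their wild type libraries. In alg-2(ok304) the sum was 1.04 times that of wild type adult 2. Within the range of the wild type adults lay 252 of the 300 and 2383 of 3245 other targets. Only Y23H5B.6, at 119 RPM, was past 2-fold lower and 0 were higher, against 1.69% lower and 2.91% higher of all targets. In alg-5(tm1163) the sum was 0.987 of wild type adult 3, and 0 of the 300 were past 2-fold in either direction, against 0% lower and 0.028% higher of all targets. The differences there ran from -0.32 for eps-8 to 0.98 for symk-1, a polyadenylation factor with 659.9 RPM against 333 RPM.

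In the alg-5(ram2) L4 library the 300 genes summed to 1.26 times wild type L4 and the other targets to 1.06 times. The genes past 2-fold higher were 3 of the 300, and 1 was lower, against 0.48% higher and 0.48% lower of all targets. Those higher were btf-1, with 219 against 85.2 RPM, set-16, a histone methyltransferase, with 163 against 69.0 RPM, and mnk-1, with 78.6 against 37.5 RPM. The GFP::ALG-5 input, a strain with the tagged gene in place, was at 179, 154 and 91.8 RPM for these genes, so the wild type L4 library was the low one of the 3. vit-2 was lower, with 10.9 against 33.7 RPM.

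The siRNAs of the 300 genes had a lower summed RPM in the immunoprecipitate than in the input of every construct, least so for ALG-5. RPM is a share of the library. MicroRNAs took 130135 to 310374 RPM of the inputs and 367169 to 852492 RPM of the immunoprecipitates, which leaves less for every other class. A lower RPM thus does not by itself show depletion among the reads that are not microRNAs, which was not tested. Their summed RPM in the immunoprecipitate was 0.233 of the input for HA::ALG-1, 0.129 for HA::ALG-2, 0.137 for the fusion ALG-1::HA::ALG-2, then 0.806 for HA::ALG-5 and 0.485 for GFP::ALG-5. The other CSR-1 targets gave 0.205, 0.118, 0.140, 0.799 and 0.476. MicroRNAs were enriched in each, by 3.74, 4.89, 5.25, 2.05 and 2.75 times, and Mutator siRNAs were at 0.577, 0.328, 0.484, 0.732 and 0.100 of the input. Relative to Mutator siRNAs, the 300 genes were therefore lower in the ALG-1 and ALG-2 constructs and higher in both ALG-5 constructs.

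In limma on log2(RPM + 1) with the construct as a block, 288 of the 300 were lower and 0 higher in the 5 immunoprecipitates than in the inputs, and the fitted change was negative for each of the 300. Over all 3506 targets tested, 97.2% were lower and 0% higher. limma pooled the spread over genes completely in this fit, with infinite prior and 4 residual degrees of freedom. Its p-values thus rest on a common spread although all genes of a library shift together. The median log2 change was -2.06 for the 300 and -1.65 for the other targets, where the added 1 RPM weighs more on low genes. Scaled to the CSR-1 sum, limma called none of the 300 and none of all targets, so the calls on RPM describe the class as a whole. The unadjusted p on the scaled values was under 0.05 for 100 of the 300 and for 683 of all 3506 targets, a larger share among the 300.

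The genes at the ends of the fitted change were as follows. mnk-1 was lowest, with an immunoprecipitate to input ratio of 0.0483, 0.0533, 0.0693, 0.364 and 0.126 for the 4 adult constructs and then GFP::ALG-5, and a limma log2 change of -3.15 (SE 0.60, adjusted p = 8.03e-05). F54C8.4 had ratios of 0.0466, 0.0265, 0.0515, 0.954 and 0.448 in the same order, so it was lower than mnk-1 for the first 3 and higher for both ALG-5 constructs, and its limma log2 change was -2.74 (SE 0.60, adjusted p = 0.000354). vit-2 and asc-1 completed the lowest 4, with limma log2 changes of -2.93 (SE 0.61, adjusted p = 0.000263) and -2.91 (SE 0.61, adjusted p = 0.000268). F13D12.5 had the smallest fall, with ratios of 0.752, 0.410, 0.549, 0.762 and 0.337 and a limma log2 change of -0.90 (SE 0.57, adjusted p = 0.118), which did not pass. F32A7.5, ntl-3, a subunit of the CCR4-NOT deadenylase complex, and eps-8, an actin regulator, followed with changes of -0.94, -0.95 and -0.98, which also did not pass in limma (adjusted p = 0.121, 0.118 and 0.108).

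Recovery varied between genes in a way that the ALG-1 and ALG-2 constructs shared. The mean ratio over these 3 constructs had a median of 0.117 and ran from 0.0415 for F54C8.4 to 0.570 for F13D12.5. Across the 300 genes the log2 ratios of any pair of these constructs had a Pearson r between 0.94 and 0.96, a description over genes of libraries from 1 experiment. With HA::ALG-5 the r of these constructs was 0.08 to 0.13, and with GFP::ALG-5 it was -0.43 to -0.35, in other experiments and, for the latter, another stage and antibody. Above a mean ratio of 0.4 were 9 genes, F13D12.5, F32A7.5, sup-35, ntl-3, retr-1, Y23H5B.6, eps-8, Y48G10A.4 and pqn-85. Below 0.06 were 14, among them car-1, a germline RNA-binding protein, npp-6, rpn-11, a proteasome subunit, zen-4, a kinesin of cytokinesis, and ppw-2.

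When only the ALG-1 and ALG-2 constructs were fitted and each library was scaled to its CSR-1 sum, a fit added after the data were seen, this pattern gave calls. Of the 300, 77 were higher and 179 lower in the immunoprecipitates than in the inputs, against 19.8% higher and 36.4% lower of all targets tested in limma. F13D12.5 had a limma log2 change of 1.84 (SE 0.07, adjusted p = 3.86e-22) and wago-9 of 1.14 (SE 0.07, adjusted p = 3.4e-16) on that scale, while csr-1 had -1.18 (SE 0.09, adjusted p = 3.54e-13) and car-1 -1.63 (SE 0.11, adjusted p = 9.53e-15). Each construct had a single immunoprecipitate and input, all from experiment 1, so these p-values do not measure the spread between repeats of a construct. A larger share of the 300 than of all targets passed in each direction, and the 300 have more reads per gene than the rest. No mock or untagged immunoprecipitate was used here, so background on the beads was not measured.

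The ALG-5 constructs differed from the others in the size of the fall in RPM from input to immunoprecipitate. In a limma fit added after the data were seen, 257 of the 300 had a higher immunoprecipitate effect for the ALG-5 than for the ALG-1 and ALG-2 constructs and 0 had a lower one, against 84.8% higher and 0.0285% lower of all targets. Scaled to the CSR-1 sum, 138 were higher and 60 lower, against 18.9% and 11.5% of all targets. F54C8.4 had a difference in log2 effect of 3.59 (SE 0.47, adjusted p = 1.07e-11) and F13D12.5 of -0.12 (SE 0.59, adjusted p = 0.845) in that limma fit on RPM. Here too no construct was repeated, so the p-values do not measure the spread between repeats. All ALG-1 and ALG-2 constructs were in experiment 1 and both ALG-5 constructs were in others, so protein and experiment cannot be told apart. MicroRNA enrichment was also lower for the ALG-5 constructs, and its part in the difference was not tested.

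Single genes went against their construct. retr-1 had a ratio of 1.73 in HA::ALG-5, the highest of the 300 there, and 0.147 in GFP::ALG-5. kca-1, an adaptor for kinesin on the meiotic spindle, had the highest ratio in GFP::ALG-5, 1.14, from 10.41 against 9.10 RPM, and mesp-1 the lowest, 0.0631, where its 0.239 RPM is a single read. These values have no replicate.

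**Figure D2:**
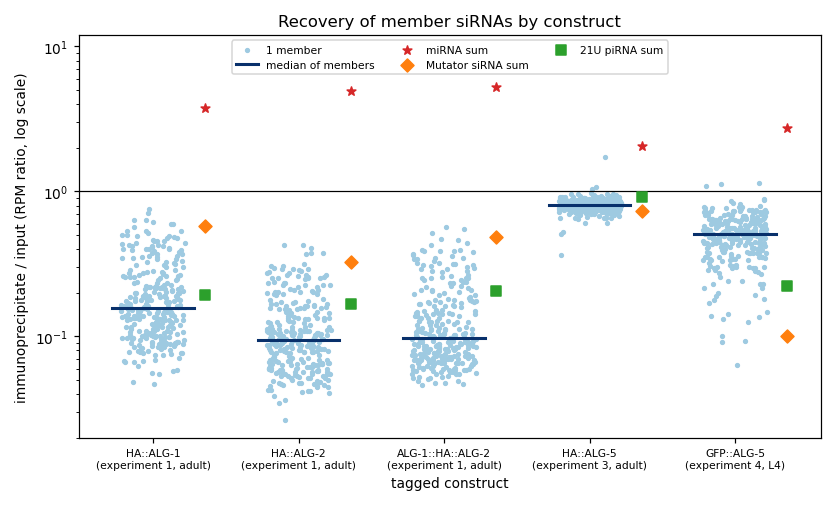
Immunoprecipitate to input RPM ratio (log axis) of each of the 300 genes in 5 constructs (blue points, spread sideways at random), with the median of the genes as a bar and the ratio of summed microRNA, Mutator siRNA and 21U piRNA as symbols. The points lie lowest for HA::ALG-2 and ALG-1::HA::ALG-2 and near 0.8 for HA::ALG-5, and the Mutator diamond is above the member median for the 3 constructs of ALG-1 and ALG-2 and below it for both ALG-5 constructs.

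Few mRNAs of the 300 genes passed the test in the 4 mutants. The alg-1(gk214) cultures were collected at 53 h and the others at 49 h, so in each comparison with alg-1(gk214) genotype and age cannot be told apart. All 300 passed the filter on low values (a mean of at least 1 FPKM in 1 genotype), and limma tested log2(FPKM + 1) over 15174 genes. In alg-1(gk214), 12 of the 300 rose (4.00%) and 7 fell (2.33%), below the 6.39% and 8.41% of all genes tested. The other CSR-1 targets were also below, with 4.67% and 3.66%. In alg-2(ok304), 4 rose (1.33%) and 8 fell (2.67%), against 4.87% and 7.08% of all genes and 1.51% and 1.78% of the other CSR-1 targets. In alg-5(ram2), 0 rose and 1 fell, against 0.033% and 0.257% of all genes. The unadjusted p was under 0.05 for 17 of the 300 and for 1165 of all 15174 genes. In alg-5(tm1163), 0 rose and 0 fell, against 0.033% and 0.0527% of all genes, and the unadjusted p was under 0.05 for 14 of the 300 and 1633 of all genes. The median log2 changes were 0.05, 0.01, 0.05 and -0.04 in that order, and 277, 281, 295 and 291 of the 300 were within 0.5 of 0. No member was called for a difference between the alg-5 alleles, with 19 of the 300 and 870 of all genes at an unadjusted p under 0.05 in limma.

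The counts in alg-1(gk214) and alg-2(ok304) rest on all libraries being used. Without wild type replicate 2, 4 of the 300 rose in alg-1(gk214) and 0 in alg-2(ok304). Without alg-1(gk214) replicate 1, 2 or 3, 6, 6 and 7 rose, and without its replicate 1, 4 fell. In alg-2(ok304), 0 rose without its replicate 2 or 3, and the number that fell was 3 when wild type replicate 1 was left out, 4 when replicate 2 of it was, and 4, 3 and 3 for its own replicates 1, 2 and 3. Without wild type replicate 3, 1 of the 300 rose in each alg-5 mutant. Fitted from the wild type and mutant libraries alone, limma called 3 up and 2 down in alg-1(gk214), 0 and 2 in alg-2(ok304), and 0 in alg-5(ram2).

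lem-3, a nuclease of the LEM domain family that acts on DNA bridges at division, had the largest fall. It had 60.6, 69.2 and 50.6 FPKM in the 3 wild type libraries, 10.8, 12.8 and 11.7 in alg-1(gk214), 16.4, 18.1 and 19.7 in alg-2(ok304) and 23.6, 26.99 and 21.7 in alg-5(ram2). No library of these mutants overlapped wild type. The limma log2 changes were -2.25 (SE 0.16, adjusted p = 1.47e-06), -1.67 (SE 0.16, adjusted p = 1.3e-05) and -1.28 (SE 0.16, adjusted p = 0.00232). In alg-5(tm1163) it had 35.4, 46.2 and 36.3 FPKM, also below all wild type libraries, with a limma log2 change of -0.60 (SE 0.16, adjusted p = 0.243), and the difference between the alg-5 alleles did not pass (adjusted p = 0.269). The alg-5(ram2) call was lost when only its libraries and wild type were fitted in limma (adjusted p = 0.0626). Its siRNAs were at 76.4, 84.5 and 129 RPM in wild type adults, 42.3 RPM in the alg-1(gk214) adult, 62.5 RPM in alg-2(ok304) and 143 RPM in alg-5(tm1163).

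mel-32, the serine hydroxymethyltransferase of folate metabolism, had 934, 948 and 747 FPKM in wild type, 487, 405 and 428 in alg-1(gk214) and 651, 624 and 599 in alg-2(ok304). The limma log2 changes were -0.99 (SE 0.11, adjusted p = 4.98e-05) and -0.48 (SE 0.11, adjusted p = 0.0124), and in both alg-5 mutants the libraries overlapped wild type. Of the members, mel-32 and alh-9, an aldehyde dehydrogenase, differed between alg-1(gk214) and alg-2(ok304) themselves, by -0.51 and 0.63 on the log2 scale (limma adjusted p = 0.0403 and 0.00593), 1 lower and 1 higher against 0.936% and 0.652% of all genes. alh-9 had 122, 101 and 124 FPKM in wild type, 166, 158 and 174 in alg-1(gk214) and 103.96, 101 and 117 in alg-2(ok304).

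egg-6, a leucine-rich repeat membrane protein, had 36.4, 33.1 and 27.03 FPKM in wild type, 17.7, 17.3 and 22.5 in alg-1(gk214) and 16.9, 17.5 and 16.1 in alg-2(ok304), with limma log2 changes of -0.72 (SE 0.15, adjusted p = 0.00502) and -0.89 (SE 0.15, adjusted p = 0.00128). F34D10.4, tfg-1, a factor of export from the endoplasmic reticulum, R05D3.2 and sec-24.1, a subunit of the vesicle coat at the same step, completed the falls in alg-1(gk214). tfg-1 had 110.01, 115 and 101 FPKM in wild type and 65.1, 73.6 and 85.3 in alg-1(gk214), a limma log2 change of -0.54 (SE 0.12, adjusted p = 0.00852), and in alg-2(ok304) its libraries, 109.7, 104.1 and 94.5 FPKM, overlapped wild type. In alg-2(ok304) the chromokinesin gene klp-19 fell from 44.2, 31.4 and 39.7 to 27.9, 19.5 and 26.8 FPKM, with a limma log2 change of -0.62 (SE 0.18, adjusted p = 0.0364). F54E12.2, hcp-2, a kinetochore protein, sec-24.1 and the transketolase tkt-1 also fell there, by 0.29 to 0.61 on the log2 scale. klp-19 was the only 1 of the 10 tubulin, kinesin and dynein members to pass in an mRNA comparison.

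vit-2 had the largest rise, from 3.21, 4.10 and 4.66 FPKM in wild type to 13.2, 12.7 and 15.3 FPKM in alg-1(gk214), a limma log2 change of 1.57 (SE 0.33, adjusted p = 0.00495). It reached 3.50, 5.99 and 10.7 FPKM in alg-2(ok304), where the libraries overlapped wild type. Y48G1BM.1, the least expressed member, passed in alg-1(gk214) with 8.11, 3.02 and 3.58 FPKM against 0.358, 0.411 and 2.93, where wild type replicate 3 nearly reached the mutant libraries. pqn-41, a glutamine-rich protein, had 13.04, 14.8 and 13.7 FPKM in wild type, 19.8, 26.4 and 25.06 in alg-1(gk214) and 18.6, 23.9 and 24.2 in alg-2(ok304), with limma log2 changes of 0.73 (SE 0.19, adjusted p = 0.0206) and 0.64 (SE 0.19, adjusted p = 0.0455).

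Other rises in alg-1(gk214) were smaller. daf-21, the cytosolic chaperone of the Hsp90 family, had 1224, 1073 and 1144 FPKM in wild type and 1734, 1637 and 1547 in alg-1(gk214), a limma log2 change of 0.52 (SE 0.08, adjusted p = 0.000955). nol-5 and dao-5, nucleolar proteins, tag-151, imb-3, an importin, Y46E12BL.2 and ppw-2 rose by 0.30 to 0.65 on the log2 scale. egl-27, a chromatin factor related to the NuRD subunit MTA, had 46.8, 35.8 and 46.6 FPKM in wild type, 57.0, 60.3 and 62.6 in alg-1(gk214) and 56.6, 60.9 and 65.0 in alg-2(ok304), with limma log2 changes of 0.48 (SE 0.14, adjusted p = 0.0308) and 0.50 (SE 0.14, adjusted p = 0.0280). In alg-2(ok304), hsp-60, the mitochondrial chaperonin, and tag-151 rose as well, by 0.33 and 0.35 on the log2 scale.

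**Figure D3:**
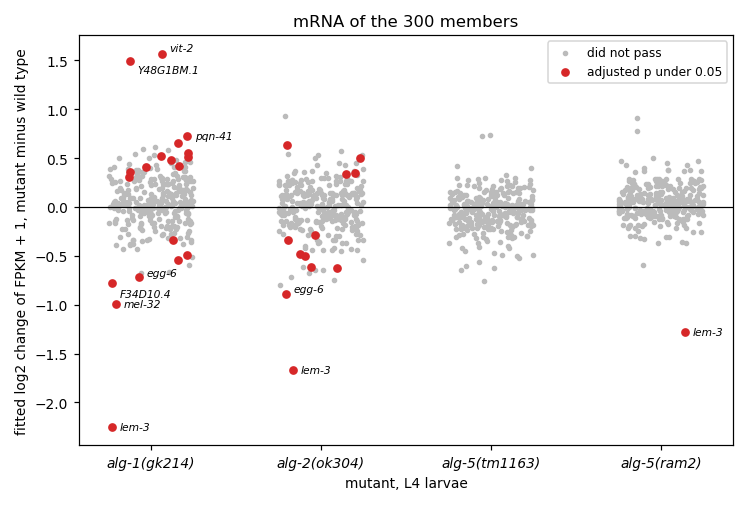
Fitted limma log2 change of FPKM + 1, mutant minus wild type, of each of the 300 genes in the 4 mutants, 1 point per gene spread sideways at random, with genes that passed in red. Most points lie between -0.5 and 0.5, lem-3 is the lowest red point in the 3 mutants that have any, and none is red in alg-5(tm1163).

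No CSR-1 pathway mRNA passed the test. Of the 15 CSR-1 pathway and P granule genes in the mRNA table, the lowest adjusted p in any of the 4 limma comparisons was 0.105, for prg-1, a Piwi Argonaute that is no member, in alg-1(gk214). csr-1 had 93.7, 102 and 102 FPKM in wild type, 84.1, 110.5 and 106 in alg-1(gk214), 87.3, 92.9 and 89.0 in alg-2(ok304), 94.4, 94.0 and 96.7 in alg-5(tm1163) and 105, 120.4 and 107 in alg-5(ram2). The alg-2(ok304) and alg-5(ram2) libraries did not overlap wild type, but neither change passed. wago-9 had 54.2, 44.7 and 58.1 FPKM in wild type and 50.1, 59.8 and 52.8 in alg-5(ram2), and ego-1 had 20.6, 18.6 and 21.8 and 24.3, 22.9 and 19.6 FPKM.

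**Figure D4:**
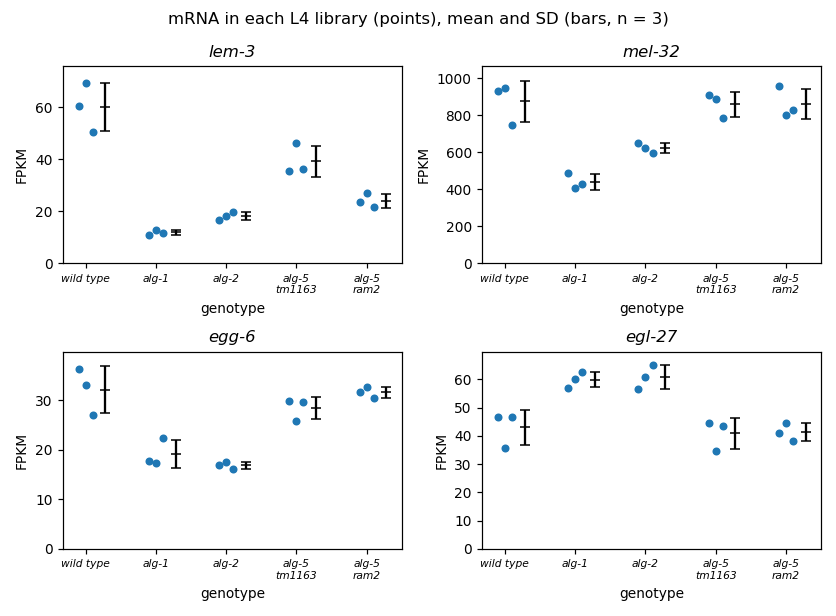
FPKM of lem-3, mel-32, egg-6 and egl-27 in each of 15 L4 libraries (blue points) with the mean and SD (bars, n = 3) of each genotype, on axes that start at 0. lem-3 lies between 50.6 and 69.2 FPKM in wild type and between 10.8 and 12.8 FPKM in alg-1(gk214), and egl-27 is higher in alg-1(gk214) and alg-2(ok304) than in the other genotypes.

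Markers of several cell types differed between the genotypes. The summed FPKM of 61 sperm genes, of which 2 were listed at 0 throughout, was 6268 to 7627 in wild type, 2309 to 3578 in alg-1(gk214), 1428 to 1665 in alg-2(ok304), 2872 to 4327 in alg-5(tm1163) and 5216 to 6246 in alg-5(ram2). The 164 hypodermis and cuticle genes, 13 of them at 0 throughout, summed to 23706 to 24968 in wild type, 30912 to 35096 in alg-1(gk214) and 41791 to 42923 in alg-2(ok304). The 6 oocyte and embryo markers, none at 0 throughout, summed to 63.4 to 81.4 FPKM in wild type, 102 to 118 in alg-1(gk214) and 61.7 to 67.8 in alg-2(ok304). The 7 germline markers, which include the members glh-1, pgl-1 and htp-3, overlapped wild type in each mutant, from 253 to 309 FPKM in alg-2(ok304) to 314 to 359 FPKM in alg-5(ram2), which did not overlap each other. The 9 intestine markers, vit-2 among them and none at 0 throughout, summed to 8589 to 10522.5 FPKM in wild type, 6263 to 6518 in alg-1(gk214), 6848 to 8333 in alg-2(ok304), 7138 to 8532 in alg-5(tm1163) and 7579 to 9055 in alg-5(ram2), so all but the last lay below wild type. The 8 muscle genes summed to 4622 to 5380.0 FPKM in wild type and 5737 to 6142 in alg-2(ok304), and in the other mutants muscle overlapped wild type. The 7 neuron genes overlapped wild type in every mutant. The part of these cell types in the changes of the members was not tested.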

How the data were processed

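The authors deposited small RNA levels as RPM per gene, in a table for CSR-1 siRNAs and tables for other classes, and mRNA levels as FPKM. The submitters' processing notes name Trimmomatic 0.35, TopHat2, Cuffdiff, HTSeq and DESeq2 without a role, and the genome build is not given in the sources used here. In the low CSR-1 values 62.7% to 73.8% were whole multiples of 1 read within 0.02 reads, so read counts were not recovered and no count test was run. The members, lists and tests were chosen with earlier results of these data known.

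Values were read with Python 3.11.15, pandas 2.3.3 and numpy 2.4.6. limma 3.58.1 (R 4.3.3) tested log2(FPKM + 1) over 15174 genes with all 15 libraries in 1 fit, and log2(RPM + 1) over CSR-1 targets for L4 against adult inputs and for immunoprecipitate against input with the construct as a block. P-values were adjusted by Benjamini-Hochberg over all features tested, with a threshold of 0.05 and no fold minimum. The fits were tested on simulated data. The genes named by rule are the 12 most abundant members, the 3 on either side of the rank threshold, up to 6 members with the largest rise and fall past the threshold in each mRNA comparison, the 4 at each end of the L4 and immunoprecipitate changes, the 3 most abundant members of each list, and the CSR-1 pathway and ALG genes. Other genes were named after their values were seen. Nothing in the labels ties replicates to separate animals, so p-values measure the spread between these samples. Alternatives were the pseudocount, the filter, centring, the 2 groups alone, a replicate block, each library left out, and scaling to the CSR-1 siRNA sum. The mutant small RNA comparisons have 1 library of each mutant and no test. Over all genes tested, same-numbered mRNA replicates of mutant and wild type deviated together weakly at most. Single genes can differ from this, as glh-1 and pgl-1 were highest in replicate 1 of every genotype.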

Additional observations from a re-analysis of the deposited data

Results flagged for a closer look

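For 257 of the 300 genes the change from input to immunoprecipitate was higher in the ALG-5 constructs than in the constructs of ALG-1 and ALG-2, by a test of the difference itself in limma at an adjusted p under 0.05. That is 85.7% of the 300 against 84.8% of all targets tested, so the count is that of the class. The ALG-5 constructs came from other experiments, so construct and experiment cannot be told apart. On the scale of the CSR-1 siRNA sum 138 were higher and 60 lower, against 18.9% and 11.5% of all targets.

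The mRNA of mel-32 was lower in alg-1(gk214) than in alg-2(ok304), by -0.508 on the log2 scale (limma adjusted p = 0.0403), in a test of the difference between these mutants. alh-9 was higher, by 0.626 on the log2 scale (limma adjusted p = 0.00593). All 3 alg-1(gk214) libraries lay beyond all 3 alg-2(ok304) libraries in both genes. The alg-1(gk214) cultures were collected at 53 h and those of alg-2(ok304) at 49 h, so genotype and age cannot be told apart in both.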

How the results depend on the processing

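The L4 and immunoprecipitate counts depend on the scale. When each library was scaled to its CSR-1 siRNA sum, 100 of the 300 genes were higher and 118 lower in L4, and 0 were lower in the 5 immunoprecipitates, while with the constructs of ALG-1 and ALG-2 alone 77 were higher and 179 lower, a fit chosen after seeing the data. On that scale the L4 difference turned positive for csr-1 (0.0071), ego-1 (0.21), glh-4 (0.73), glh-1 (0.97), npp-10 (0.40) and pgl-1 (0.43), and the immunoprecipitate change in the 3-construct fit for F13D12.5 (1.84), F32A7.5 (1.79), ntl-3 (1.62) and eps-8 (1.49), all log2. The mRNA counts depend on the spread estimate. With only the mutant and wild type libraries in the limma fit, which leaves fewer samples, 3 rose and 2 fell in alg-1(gk214), 0 rose and 2 fell in alg-2(ok304) and 0 fell in alg-5(ram2). Centring on a common median left 5 falls in alg-2(ok304), and the cause was not tested. With genes of the Mutator table kept in, the share of the 300 was 36.4%, and 290 of the 300 members stayed.

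Leaving out 1 library at a time, 4 to 15 rose and 4 to 8 fell in alg-1(gk214), 0 to 5 rose and 3 to 9 fell in alg-2(ok304), 0 to 1 rose and 0 fell in alg-5(tm1163), 0 to 1 rose and 1 fell in alg-5(ram2), 0 were higher and 194 to 300 lower in immunoprecipitates, 2 were higher and 255 to 281 lower in L4, and the share was 37.6% to 38.3%. With the replicate number as a block, 16 rose and 7 fell in alg-1(gk214), 6 and 8 in alg-2(ok304), 0 and 0 in alg-5(tm1163) and 0 and 1 in alg-5(ram2). Deviations of same-numbered libraries correlated at -0.0213 to 0.0904 and those of differently numbered ones at -0.0999 to 0.0703. The numbers were not taken as pairing. Over named genes, 506 values kept direction and side of the threshold, 118 no longer passed, 14 newly passed and 10 reversed.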
